A study of Mus musculus with 18 samples.

Results

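Messenger RNA of 10 genes of the sperm tail was examined in mouse round spermatids (RS), the haploid germ cells that have left meiosis and have not yet elongated. The genes were those of the outer dense fiber series Odf1, Odf2, Odf3 and Odf4, together with Smcp, Cabs1, Cabyr, Tppp2, Efcab1 and Tcp11. They were taken by symbol from a table of 54232 genes, and all 10 were found and passed the filter on low counts. The table held 18 libraries, 6 each from WT, GRTH knock-out (KO) and GRTH knock-in (KI) mice aged 75 to 85 days. GRTH is the RNA helicase encoded by Ddx25. KO mice lack it, and in KI mice a human GRTH gene with a missense mutation leaves the protein without its phosphorylated form. Both mutants are sterile and their RS stop before elongation, so that their testes hold no elongating spermatids, which WT testes do. The labels gave no strain and did not say whether the libraries of a genotype came from separate animals. The RS had been separated from other testis cells by sedimentation through a BSA gradient. The comparisons asked how loss of GRTH, or of its phosphorylated form alone, went with the level of each gene.

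The sperm tail is built around an axoneme of microtubule doublets. Outer dense fibers run along the doublets as stiff, cysteine-rich columns, a mitochondrial sheath surrounds them in the midpiece, and a fibrous sheath surrounds them in the principal piece. These accessory structures are assembled while spermatids elongate, from proteins whose mRNA is in large part made earlier, in RS, and held until it is translated. Odf1 and Odf2 encode the main proteins of the fibers. Odf3 and Odf4 encode further tail proteins that carry the name of the fiber. Smcp encodes a cysteine-rich protein of the mitochondrial coat, Cabyr a calcium-binding protein of the fibrous sheath, and Cabs1 a calcium-binding protein made in spermatids. Tppp2 belongs to a family of proteins that promote tubulin assembly, Efcab1 encodes an EF-hand protein that works with the outer dynein arms of the axoneme, and Tcp11 encodes a protein linked to cAMP signaling and sperm motility.

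The genes lie on 10 different chromosomes of GRCm38, and no exon base of any of them is shared with another gene on the same strand. Odf1 (ENSMUSG00000061923) is at chromosome 15, 38219203 to 38226735, plus strand, with 1 annotated transcript. Odf2 (ENSMUSG00000026790) is at chromosome 2, 29889221 to 29931746, plus strand, with 25 transcripts. Odf3 (ENSMUSG00000025482) is at chromosome 7, 140847805 to 140851018, plus strand, and Odf4 (ENSMUSG00000032921) at chromosome 11, 68921835 to 68927081, minus strand. Smcp (ENSMUSG00000074435) lies on the minus strand of chromosome 3 from 92583867 to 92588997. Cabs1 (ENSMUSG00000007907) lies on the plus strand of chromosome 5 from 87979439 to 87981544. Tppp2 (ENSMUSG00000008813) is on chromosome 14, 51918425 to 51920700, plus strand. Efcab1 (ENSMUSG00000068617) is on chromosome 16, 14906606 to 14981371, plus strand, and Tcp11 (ENSMUSG00000062859) on chromosome 17, 28066745 to 28080639, minus strand. Odf2, Odf3, Cabyr and Efcab1 have an annotated gene on the opposite strand, and the counting used strand.

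RefSeq promoters on GRCm38.p6, each 300 bases long (250 before the start site to 50 after its first base), were at hand for 7 of the 10 genes, with 12 promoters in all. They were not at hand for Odf1, Efcab1 and Cabyr. The bases before the start are shown for Cabs1, which had the largest fall of the 10 genes in both mutants, for Smcp, which had the highest level per length, and for Odf4, which fell least among those that changed in KI. Each run is 100 bases, read 5′ to 3′ on the gene's strand, and ends just before the more upstream of the starts that RefSeq and GENCODE give. None of the motifs named below lies within them.
Cabs1 (chr5:87979339-87979438, plus strand): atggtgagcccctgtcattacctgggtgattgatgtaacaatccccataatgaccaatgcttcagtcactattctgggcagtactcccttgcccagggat
Smcp (chr3:92589074-92589173, minus strand): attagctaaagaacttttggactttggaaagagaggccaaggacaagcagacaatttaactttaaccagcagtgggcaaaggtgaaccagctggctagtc
Odf4 (chr11:68927082-68927181, minus strand): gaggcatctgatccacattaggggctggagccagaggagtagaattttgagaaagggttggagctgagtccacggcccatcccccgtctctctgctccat

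The cAMP response element is bound by CREM, a factor known for switching on many spermatid genes. The 12 promoters were searched on both strands for the full element TGACGTCA, for TGATGTCA, which differs from it at a single base, for the short site TGACG, which every full element also contains, and for the TATA box TATAAA. The full element was in none of the 12, and in 1.79% of all 32851 RefSeq promoters of the same length. The changed element was in the promoter of Smcp and in 3.62% of all promoters, starting 24 bases after the RefSeq start site and 52 bases before the GENCODE start. The short site was in some but not all promoters of Odf2 and of Tcp11. It was in 20.8% of all promoters, and 23% of all genes had it in any promoter. The Odf2 and Tcp11 promoters with it belong to RefSeq starts downstream of the GENCODE start. A TATA box on the opposite strand was in the promoter of Cabs1, starting at base -197 from its RefSeq start, against 13.6% of all. A match is a description of the letters and does not show binding. Windows of 30 bases around the first of these elements and around a short site of each of the other two genes read as follows, with the element in capitals.
Smcp (chr3:92589031-92589060, minus strand): ggagagtattaTGATGTCAtaaaagagctg
Odf2 (chr2:29889681-29889710, plus strand): ggggcatctctgTGACGctgggggctgggc
Tcp11 (chr17:28079800-28079829, minus strand): atggatttcctgTGACGctggacagttagt
The windows of Odf2 and Tcp11 share the 12-base run ctgTGACGctgg, which was noticed after the sequences were seen. It occurred in 3 of the 32851 promoters, which belong to 2 genes, Odf2 and Tcp11. The Odf2 promoters among these overlap and hold the run at the same place. As the run was defined from these windows, finding it there is no result. Whether other 12-base runs are as rare was not tested.

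Gene counts per library totalled 20606738 to 26776555 for WT, 18766971 to 25654453 for KO and 19996042 to 24915182 for KI. Levels are in normalized CPM, a gene's counts relative to a library size adjusted with edgeR's TMM factors. As a check of the labels, Ddx25 lay at 567 ± 24.7 CPM in WT and at 70.0 ± 14.8 in KO (SD, n = 6 each). In KI it was between 0.046 and 0.519 CPM in 5 libraries, and at 56.9 CPM in the library labelled KI 4, inside the range of the KO libraries (47.7 to 90.9). These values are of the mouse gene and do not give the level of the human gene carried by KI. The study states that the non-phosphorylated protein is unaffected in KI. The library labelled KI 4 was kept in KI, and results without it are given below. Some libraries of a genotype were also closer to each other than the rest. On an index of the difference between libraries that is 1 for sampling noise alone, the 6 closest pairs within a genotype lay between 2.12 and 3.0 and the next at 4.62, while KO 2 and KI 4 lay at 1.59. The libraries of such a pair may not be independent, and p-values here measure the spread between these libraries.

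Of the 10 genes, 5 fell by more than 1 log2 unit in KO and the same 5 in KI, namely Cabs1, Tppp2, Efcab1, Smcp and Odf1. By a test of a change of any amount, 9 of the 10 fell in each mutant, all but Odf3, and none rose. Among all 21058 genes tested, 1.13% were lower in KO past 1 log2 unit and 13.5% by any amount, and the shares in KI were 1.43% and 15.4%. The median log2 fold change of the 10 genes was -1.57 in KO and -1.80 in KI, beside 0.03 and 0.05 over all genes. The test against 1 log2 unit was edgeR's glmTreat and that of any amount its quasi-likelihood F-test, both with Benjamini-Hochberg adjustment over all genes and a threshold of 0.1. The genes past 1 log2 unit are also named by the study, which found them in these libraries, so their direction is no independent evidence. The same holds for their part in the counts and in the median. KO and KI were each compared with the same WT libraries. With close pairs of libraries (described above) summed and KI 4 left out, 4 of the 10 fell by more than 1 log2 unit in KO and 3 in KI, and 8 and 7 fell by any amount.

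**Figure D1:**
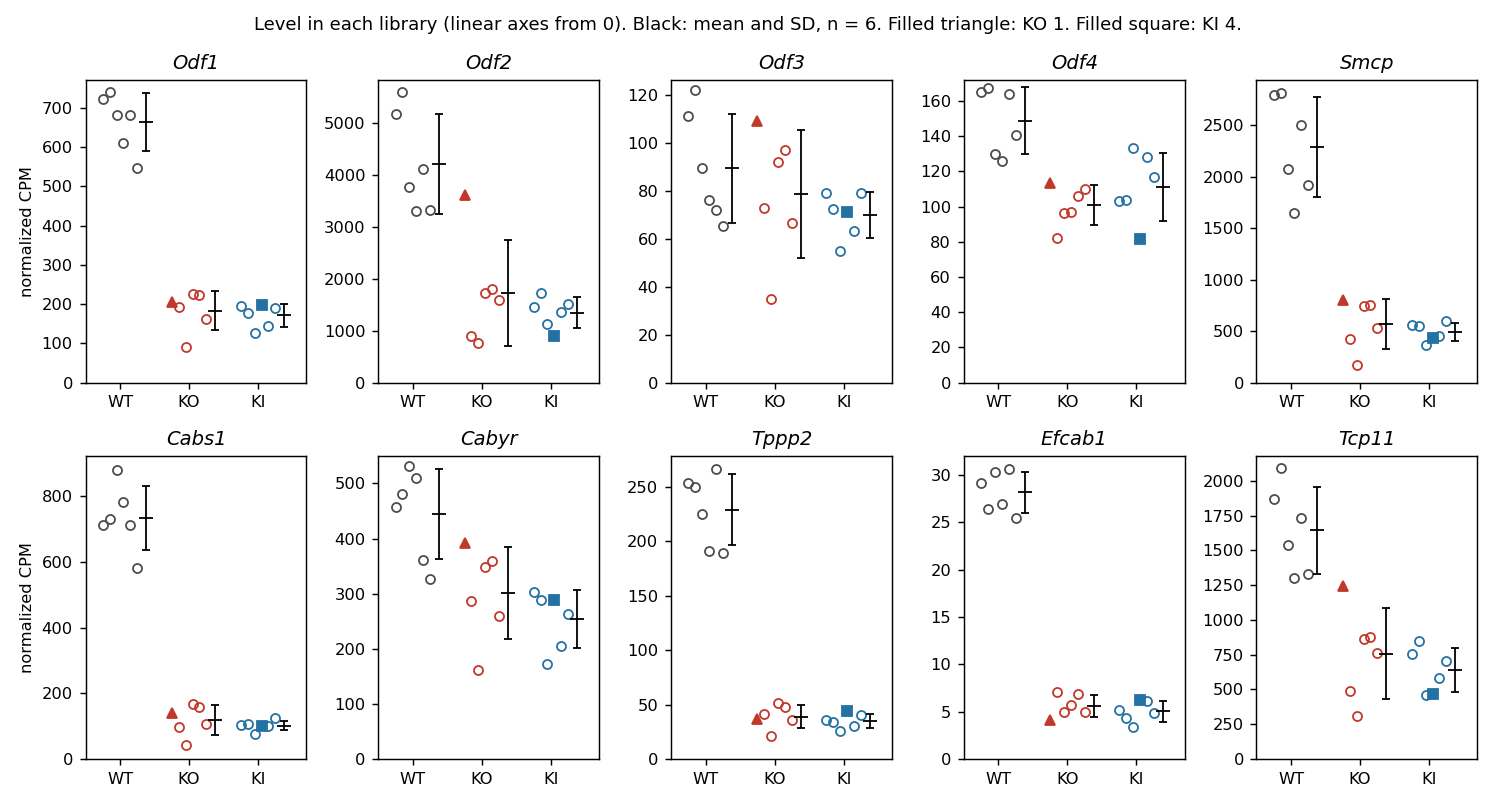
Normalized CPM (linear axis from 0) of the 10 genes in each of the 18 libraries by genotype. Each point is a library, black marks give the mean and SD (n = 6), the filled triangle is KO 1 and the filled square KI 4. Every KO and KI library lies below every WT library for Odf1, Smcp, Cabs1, Tppp2, Efcab1 and Tcp11, while the genotypes overlap for Odf3.

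All 6 KO libraries lay below all 6 WT libraries for 7 of the 10 genes, and all 6 KI libraries for 8. Of all genes tested, 6.44% did not overlap in this direction in KO and 7.9% in KI. In KO the genes that overlapped with WT were Odf2, Odf3 and Cabyr, and in KI they were Odf3 and Odf4. The 10 genes together made up 0.984% ± 0.175 of all counts in the WT libraries, while this share was 0.395% ± 0.167 for KO and 0.335% ± 0.058 for KI (SD, n = 6). In a bulk library, fewer cells that carry an mRNA and less of it in each cell cannot be told apart.

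Odf1, which makes a major fiber protein also needed to hold the head and tail together, fell in both mutants. In WT its level ran from 546 to 739.5 CPM with a median of 682. In KO it ran from 91.9 to 224 CPM with a median of 199, and in KI from 127 to 198 CPM with a median of 183. No mutant library reached the lowest WT library. The fold was 3.62 lower in KO (95% interval 2.79 to 4.70) and 3.87 lower in KI (2.98 to 5.03). The log2 fold changes were -1.86 (SE 0.18, edgeR's glmTreat adjusted p = 0.00441) and -1.95 (SE 0.18, adjusted p = 0.00131). With each close pair of libraries summed to a single library and KI 4 left out, Odf1 passed against 1 log2 unit in KO (edgeR's glmTreat adjusted p = 0.0561) and not in KI (-1.93, adjusted p = 0.146).

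Odf2, whose protein is shared by the fibers and by the centriole, was the most abundant of the 10 by counts per library. It ran from 3311 to 5593 CPM in WT with a median of 3942. In KO it ran from 755 to 3615 CPM with a median of 1656, and in KI from 891 to 1735 CPM with a median of 1410. A single KO library, KO 1, reached into the WT range, and no KI library did. In log2 units the change was -1.28 in KO (SE 0.28, edgeR adjusted p = 0.00205) and -1.65 in KI (SE 0.29, adjusted p = 0.000183). Neither passed the test against 1 log2 unit. Without KO 1, whose value stood apart from the other KO libraries, the log2 fold change in KO was -1.64, and this also did not pass against 1 log2 unit (edgeR's glmTreat adjusted p = 0.270).

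Odf3 differed least. Its protein is found along the tail and carries Pro-Gly-Pro repeats. Its levels ran from 65.5 to 122 CPM in WT with a median of 82.9, from 34.8 to 109 in KO with a median of 82.6, and from 54.9 to 79.4 in KI with a median of 71.8. The genotypes overlapped over most of their ranges. Its log2 fold change was -0.18 in KO (95% interval -0.61 to 0.25, edgeR adjusted p = 0.597) and -0.35 in KI (-0.78 to 0.08, adjusted p = 0.239). The intervals do not reach a fall of 1 log2 unit.

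Odf4, a testis-specific protein of the tail, fell by a small amount. It ran from 126 to 167 CPM in WT with a median of 152, from 82.3 to 113 in KO with a median of 102, and from 81.5 to 133 in KI with a median of 110.4. The KO libraries all lay below WT, and the KI libraries overlapped with WT. The log2 fold change was -0.56 in KO (SE 0.13, edgeR adjusted p = 0.00268) and -0.42 in KI (SE 0.13, adjusted p = 0.0188). With close pairs summed and KI 4 left out, the value in KI was -0.31 and no longer passed (edgeR adjusted p = 0.394).

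The 4 Odf genes thus moved by different amounts, and their ratios within a library, in which the scaling cancels, were compared directly. This set of 12 comparisons was chosen after the levels were seen. The log2 ratio of Odf1 to Odf3 was 2.92 ± 0.24 in WT and dropped to 1.24 ± 0.19 in KO and 1.28 ± 0.11 in KI (SD, n = 6). It differed from WT by -1.68 in KO and -1.64 in KI, and in both exact permutation tests p = 0.00216, the smallest that 6 against 6 can give (two-sided, Benjamini-Hochberg adjusted p = 0.00371 over the 12). The ratio of Odf1 to Odf4 differed by -1.35 in KO and -1.53 in KI, and that of Odf2 to Odf3 by -1.21 and -1.32, with the same exact p-values. The ratio of Odf2 to Odf4 differed by -0.88 in KO (exact p = 0.0130, adjusted p = 0.0195) and by -1.22 in KI (exact p = 0.00216, adjusted p = 0.00371). Odf1 to Odf2 did not pass, at -0.47 in KO (exact permutation test, adjusted p = 0.130) and -0.32 in KI (adjusted p = 0.153). Odf3 to Odf4 did not pass either, at 0.33 (exact permutation test, adjusted p = 0.248) and 0.10 (adjusted p = 0.610). So the levels of Odf1 and Odf2 dropped relative to those of Odf3 and Odf4 in each mutant. With close pairs averaged and KI 4 left out, all 12 differences kept their direction and none passed. In KI this leaves 3 libraries against 3, which allow no exact p below 0.10. In KO it leaves 5 against 3, which also limits how small the exact p can be. That none passed therefore says little about the ratios.

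**Figure D2:**
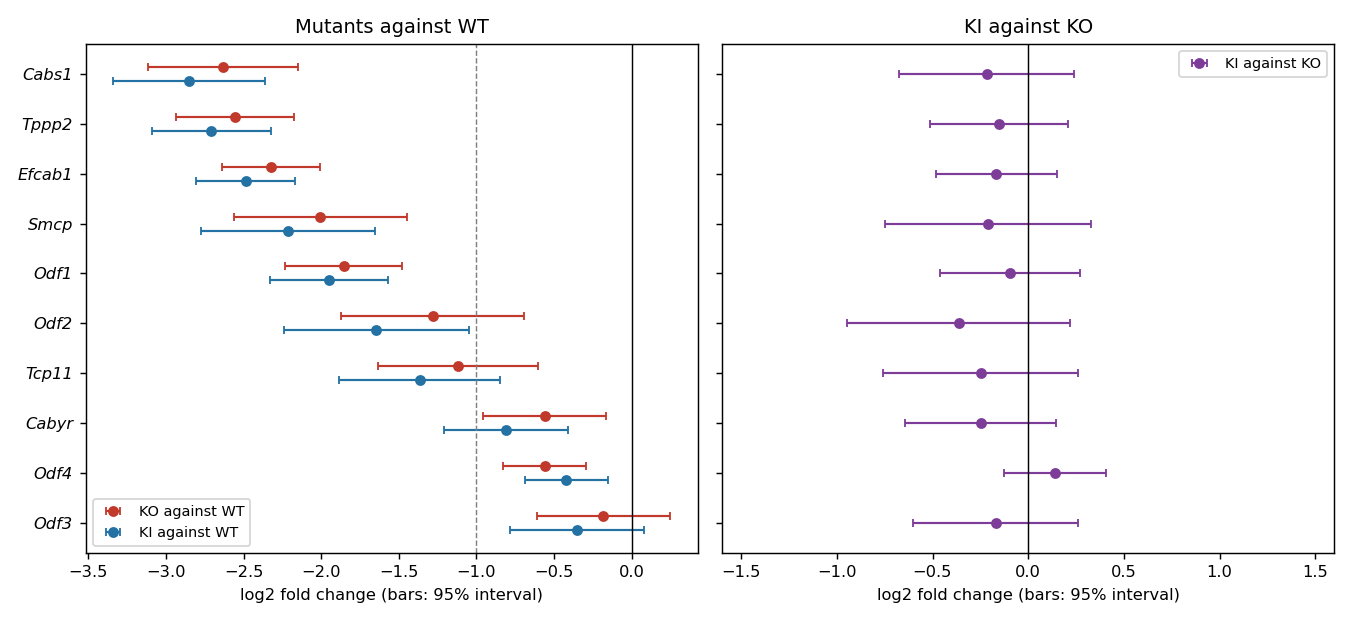
Log2 fold change of the 10 genes with its 95% interval, for KO and KI against WT (left, dashed line at a fall of 1 log2 unit) and for KI against KO (right). The values against WT run from -2.63 for Cabs1 to -0.18 for Odf3 in KO, and all intervals of KI against KO cross 0.

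Smcp mRNA, a known example of a message that RS store before translation, fell in both mutants. Its levels ran from 1649 to 2810.1 CPM in WT with a median of 2286. They ran from 170 to 804 CPM in KO with a median of 638 and from 369 to 599 CPM in KI with a median of 500.2. The highest mutant library was below the lowest WT library in each case. The change was -2.0 log2 units in KO (SE 0.27, edgeR's glmTreat adjusted p = 0.0325) and -2.21 in KI (SE 0.27, adjusted p = 0.00573), or 4.01 and 4.64 times lower. With close pairs summed and KI 4 left out, the values in KO and KI were -2.11 and -2.10, and neither passed against 1 log2 unit (edgeR's glmTreat adjusted p = 0.199 and 0.448).

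Cabyr, the calcium-binding protein of the fibrous sheath, fell in both mutants, with estimates under 1 log2 unit. The gene (ENSMUSG00000024430) lies on the plus strand of chromosome 18 from 12740322 to 12755260. Its level ran from 327 to 531 CPM in WT with a median of 469, from 162 to 391 in KO with a median of 318, and from 173 to 303 in KI with a median of 276. KO overlapped with WT and KI did not. In log2 units the change was -0.56 in KO (SE 0.19, edgeR adjusted p = 0.0364) and -0.81 in KI (SE 0.19, adjusted p = 0.00312). With close pairs summed and KI 4 left out these were -0.63 and -0.80, and neither passed (edgeR adjusted p = 0.129 and 0.101).

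Cabs1, the other calcium-binding protein, showed the largest fall of the 10. It ran from 581 to 881 CPM in WT with a median of 722. It ran from 42.3 to 167 CPM in KO with a median of 122, and from 76.9 to 124 CPM in KI with a median of 103. All mutant libraries were far below WT. Its mean in KO was 16.1% of that in WT and its mean in KI 13.9%. Its log2 fold change was -2.63 in KO (SE 0.23, edgeR's glmTreat adjusted p = 4.26e-05) and -2.85 in KI (SE 0.24, adjusted p = 7.57e-06).

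Tppp2 and Efcab1 fell in both mutants as well. Tppp2 ran from 189 to 266 CPM in WT with a median of 237, from 21.1 to 51.7 in KO with a median of 38.6, and from 25.7 to 43.9 in KI with a median of 35.0. Its log2 fold change was -2.56 in KO (SE 0.18, edgeR's glmTreat adjusted p = 3.58e-06) and -2.71 in KI (SE 0.18, adjusted p = 8.04e-07). Neither mutant overlapped with WT, while the KI range lay within that of KO. Efcab1 was the least abundant of the 10 by counts, at 25.5 to 30.6 CPM in WT with a median of 28.1, at 4.14 to 7.07 in KO with a median of 5.34, and at 3.38 to 6.22 in KI with a median of 5.01. Its mutant libraries held 74 to 170 counts, its WT libraries 554 to 658, and again neither mutant overlapped with WT. The log2 fold change was -2.32 in KO (SE 0.15, edgeR's glmTreat adjusted p = 3.28e-06) and -2.49 in KI (SE 0.15, adjusted p = 5.01e-07). Its spread in WT, at 7.68% of the mean, was the smallest of the 10 genes.

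Tcp11 fell, by an amount not shown to exceed 1 log2 unit. It ran from 1298 to 2089 CPM in WT with a median of 1636, from 312 to 1244 in KO with a median of 812, and from 462 to 847 in KI with a median of 643. No mutant library reached the lowest WT library, although KO 1 came close. In log2 units the change was -1.12 in KO (SE 0.25, edgeR adjusted p = 0.00206) and -1.37 in KI (SE 0.25, adjusted p = 0.000297).

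The mutants were then compared with each other. None of the 10 genes differed between KI and KO by edgeR's quasi-likelihood test, with adjusted p from 0.962 to 0.966, and none had an unadjusted p under 0.05. DESeq2 called none either. Of all genes tested, 0.0997% differed (21 genes), and 0.522% without KI 4 (111 genes). The log2 differences, KI minus KO, ran from -0.36 for Odf2 to 0.14 for Odf4, with a median of -0.19 beside -0.02 over all genes. That of Odf2 had a 95% interval from -0.95 to 0.22, the widest of the 10. That of Odf4 ran from -0.13 to 0.41 and that of Odf1 from -0.46 to 0.27. A p that misses the threshold does not show that the mutants were alike, and the lower bounds of these intervals leave room for a further fall of up to 0.95 log2 units in KI for Odf2. The difference of Odf2 was -0.01 without KO 1 and -0.52 without KO 3, the lowest and highest in size when a single library was left out. Without KO 3, 3 of the 10 genes were lower in KI at an unadjusted p under 0.05, and none passed after adjustment over all genes. These were Cabs1 at -0.39 (edgeR unadjusted p = 0.0194, adjusted p = 0.555), Cabyr at -0.38 (unadjusted p = 0.0334, adjusted p = 0.573) and Smcp at -0.40 (unadjusted p = 0.0427, adjusted p = 0.587), beside -0.22, -0.25 and -0.21 with all libraries.

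The libraries of a genotype differed in a way that ran across several genes. KO 3 was the lowest KO library for 8 of the 10 genes and KI 3 the lowest KI library for 8. KO 3 lay below the KO mean for all 10, with a median deviation of -0.97 log2 units, and KI 3 for 9, with a median of -0.40. The summed level of 6 late spermatid markers (transition proteins, protamines and Spem1) was also lowest in these libraries within their genotypes, at 1236 CPM in KO 3 and 1402 CPM in KI 3. In WT, WT 6 lay below the WT mean for all 10 genes, with a median deviation of -0.28, and was the lowest for 6. Its sum of late spermatid markers, 10146 CPM, was the lowest of WT.

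KO 1 behaved otherwise. It was the highest KO library for 6 genes, Odf2, Odf3, Odf4, Smcp, Cabyr and Tcp11, and the lowest for Efcab1, at 4.14 CPM. Its sum of late spermatid markers was 1726 CPM, lower than in 4 of the other 5 KO libraries. Its sum of 6 early round spermatid markers (acrosome and sperm membrane genes) was 690 CPM, against 312 to 420 in the other KO libraries and 338 to 645 in WT. The part of these differences in the levels of the 10 genes was not tested. Without KO 1, 5 of the 10 genes still fell by more than 1 log2 unit in KO and 9 by any amount.

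KI 4 lay outside the range of the other KI libraries for 5 of the 10 genes. It was the highest of KI for Odf1, Tppp2 and Efcab1 and the lowest for Odf2, at 891 CPM against 1119 to 1735, and for Odf4, at 81.5 CPM against 103 to 133. For 9 of the 10 genes it lay within the range of the KO libraries, and for Odf4 just below it. Neither count by itself sets KI 4 apart on these genes. The other KI libraries also lay within the KO range for every gene but Odf4 and Efcab1. KI 3 was the lowest of KI for 8 of the 10 genes and the highest for 1. The levels of KI 4 lay near those of KO 2, the library closest to it on the index above. In KI 4 and KO 2 they were 198 and 194 CPM for Odf1, 891 and 906 for Odf2, and 71.1 and 73.05 for Odf3. They were 81.5 and 82.3 for Odf4, 436 and 424.5 for Smcp, and 101 and 96.7 for Cabs1. They were 288 and 287 for Cabyr, 43.9 and 41.0 for Tppp2, 6.22 and 7.07 for Efcab1, and 469 and 487 for Tcp11. Whether KI 4 comes from a KO mouse was not tested. Without KI 4, 5 of the 10 genes fell by more than 1 log2 unit in KI and 9 by any amount, as with it.

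**Figure D3:**
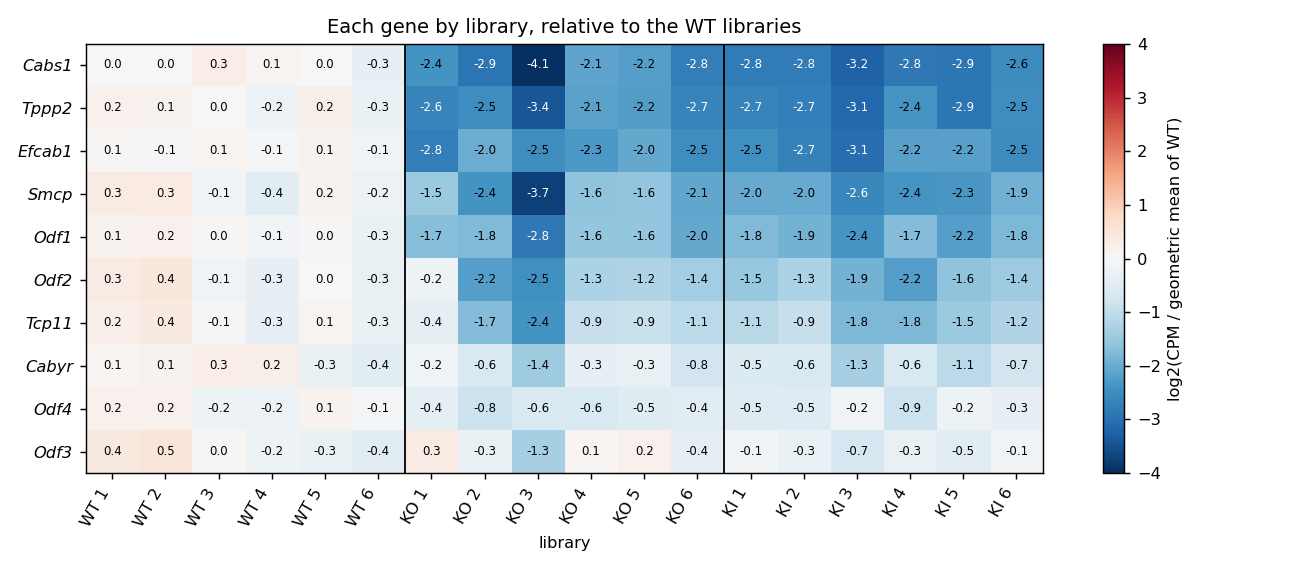
Log2 ratio of the CPM in each library to the geometric mean of the WT libraries, for the 10 genes (rows, ordered by the change in KO) and 18 libraries (columns). Blue is lower than WT. KO 3 and KI 3 are the darkest columns of their genotypes for 8 of the 10 genes each, and KO 1 is near WT for Odf2, Tcp11, Cabyr and Odf3 while Cabs1, Tppp2 and Efcab1 are low.

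Pairs of genes were compared by Pearson's r of log2 CPM. Over the 18 libraries r ran from 0.32 for Odf3 with Odf4 to 0.99 for Odf1 with Tppp2, and it carries the difference between the genotypes. After the mean of each genotype was taken away, r was highest for Odf2 with Tcp11, at 0.95, for Odf1 with Tppp2, at 0.94, and for Smcp with Tcp11, at 0.93. It was lowest for Odf4 with Efcab1, at -0.44, and for Odf2 with Efcab1, at -0.30. The points share library size and the close pairs, and these are descriptions over 18 libraries. A single library can weigh heavily on them. KO 1 was the highest KO library for Odf2, Odf4 and Tcp11 and the lowest for Efcab1, and r without it is not given.

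Among 12782 other protein-coding genes with a mean of 1 CPM or more, the patterns most like that of Odf1 over the 18 libraries were those of Fam187b, Dnajb8 and Mex3d, each with r = 0.99 or more. Those most like Odf2 were Hk1 (r = 0.993), Iqcn (0.992) and Kif17 (0.989). Those most like Smcp were 4933411K16Rik (0.997), 4921507P07Rik (0.996) and Cdiptos (0.995).

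Levels can be set against each other only per length, as CPM per kilobase of annotated exon (RPKM). In WT the order was Smcp at 2508 ± 529, Tcp11 at 786 ± 149, Odf1 at 601 ± 66.2, Cabs1 at 487 ± 65.3 and Odf2 at 425 ± 97.2 RPKM, followed by Tppp2 at 309 ± 44.2, Cabyr at 206 ± 38.2, Odf4 at 128 ± 16.3, Odf3 at 43.4 ± 11.1 and Efcab1 at 6.36 ± 0.49 (SD, n = 6). Neighbours kept this order in 6 of 6 WT libraries, except that Cabs1 was above Odf2 in 4 of 6. The place of Odf2 depends on its length. Its 25 transcripts cover 9919 exon bases, of which the longest holds 4291, and by the longest transcript Odf2 stood at 982 RPKM and ranked 2. In KO and in KI Smcp and Tcp11 kept the first and second places, while Cabs1 moved from rank 4 to rank 7 and Tppp2 from 6 to 8.

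**Figure D4:**
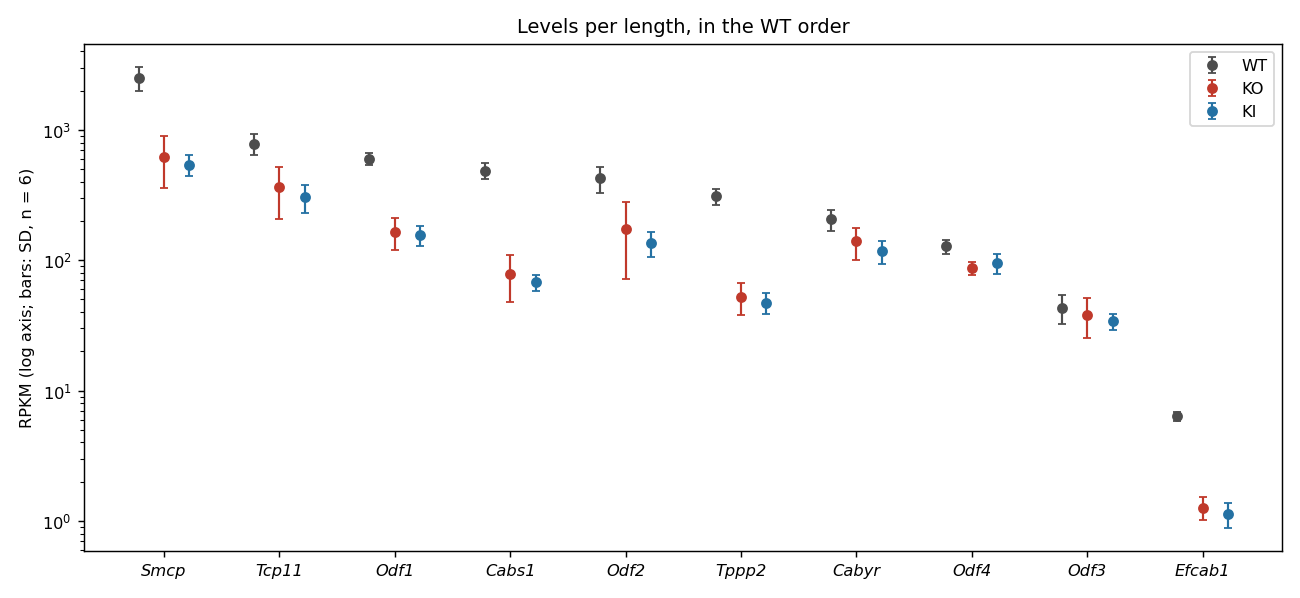
RPKM (log axis) of the 10 genes in WT, KO and KI, as mean and SD over 6 libraries, in the order of the WT means. Cabs1 and Tppp2 fall below Cabyr and Odf4 in both mutants, and Efcab1 is lowest in each genotype.

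Other genes of the sperm tail were taken as lists by structure. Of 17 axoneme genes none passed in KO at an edgeR adjusted p under 0.1, with a median log2 fold change of 0.04, while 1 rose and none fell in KI, with a median of 0.16. In KO the axoneme values ran from -0.26 for Spag16 (edgeR adjusted p = 0.124), a protein of the central pair, to 0.35 for Ccdc40 (adjusted p = 0.327), which sets the spacing of the arms on the doublets. Of 10 fibrous sheath genes 5 fell by any amount in KO and 7 in KI, none rose, and the medians were -0.60 and -0.80. Gapdhs, the sperm form of a glycolytic enzyme bound to the sheath, was lowest at -2.24 (SE 0.25, edgeR's glmTreat adjusted p = 0.00205), and Fsip2, a sheath protein, was at 0.18 (adjusted p of any change 0.464). Gapdhs and Akap4, the main scaffold of the sheath, were the 2 of the 10 that fell by more than 1 log2 unit in KO, with Akap4 at -2.10 (edgeR's glmTreat adjusted p = 0.00389).

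Of 10 mitochondrial sheath genes 5 fell by any amount in KO and 5 in KI, with medians of -0.46 and -0.55, and 1 fell by more than 1 log2 unit in each. This was Spata18, which acts on mitochondrial quality, at -2.43 (SE 0.20, edgeR's glmTreat adjusted p = 3.24e-05), while Slc25a31, the germ cell carrier of ATP and ADP, was at 0.16 (adjusted p of any change 0.512). Of 5 genes listed as partners of the outer dense fibers 2 fell in KO and 3 in KI, and 1 rose in KI, with medians of -0.37 and -0.56. Oaz3, the antizyme of spermatids, was lowest at -2.36 (SE 0.18, edgeR's glmTreat adjusted p = 2.36e-05), and Spag5 highest at 0.22 (adjusted p of any change 0.179). Of 8 relatives of the 10 genes by family 7 were tested, the eighth, Odf3l2, being almost without counts. Among these, 1 fell and 2 rose in KO, with a median of 0.22, while 1 fell and 4 rose in KI, with a median of 0.47. Of all genes tested, 16.4% rose by any amount in KO and 16.1% in KI, while 13.5% and 15.4% fell. Tppp3, a relative of Tppp2, rose by 1.10 (SE 0.14, edgeR adjusted p = 7.22e-06), from 7.89 ± 1.15 CPM in WT to 16.9 ± 3.21 in KO, and Odf3b, a relative of Odf3, changed by -1.05 (SE 0.17, adjusted p = 9.39e-05).

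**Figure D5:**
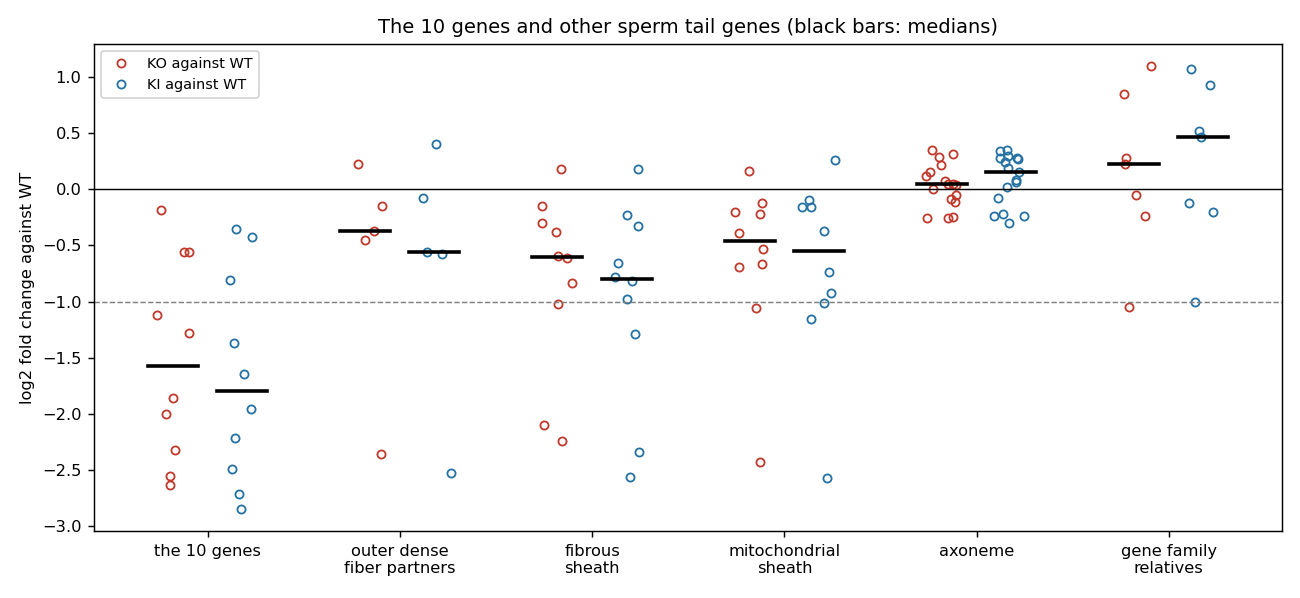
Log2 fold change against WT (vertical axis) of the 10 genes and of 5 lists of other sperm tail genes, in KO and KI. Each point is a gene and black bars are medians. The medians in KO are -1.57 for the 10 genes, -0.60 for the fibrous sheath and 0.04 for the axoneme. The study had already named 5 of the 10 genes as changed in these libraries, and of the lists Akap4, Gapdhs, Spata18 and Oaz3.

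Markers of testis cell types were followed beside these genes. All 6 late spermatid markers fell in both mutants, and their summed level was 10146 to 14038 CPM in WT, 1236 to 2571 in KO and 1402 to 2398 in KI. The study had already named these 6 as lower in these libraries, so their fall is no independent evidence. It also states that Prm2 and Tnp2 are transcribed in RS and stored, so their level does not count late spermatids alone. Of 6 early round spermatid markers 1 fell in KO and 2 in KI, with sums of 338 to 645 CPM in WT, 312 to 690 in KO and 281 to 404 in KI. Early markers were thus counted in every library. Of 6 spermatocyte markers 3 rose and 1 fell in KO, and 2 rose and 1 fell in KI. They summed to 345 to 457 CPM in WT, 435 to 508 in KO and 412 to 481 in KI. Of 5 spermatogonium markers 2 rose in KO and 1 in KI and none fell, with sums of 20.2 to 27.9 CPM in WT, 26.0 to 52.7 in KO and 15.3 to 54.0 in KI. Leydig cell markers, all 5 of which rose in both mutants, summed to 9.68 to 19.7 CPM in WT, 29.6 to 51.0 in KO and 13.2 to 65.7 in KI. The sums of KI 3, KI 5 and KI 6 (16.6, 13.2 and 17.55 CPM) lay within the WT range. Those of KI 1, KI 2 and KI 4 (45.9, 65.7 and 48.8 CPM) lay above it. Of 5 Sertoli cell markers 1 fell in KO and 2 in KI and none rose, with sums of 6.62 to 12.6 CPM in WT, 4.68 to 9.39 in KO and 4.72 to 9.78 in KI. Of 5 macrophage and peritubular cell markers 2 rose and 1 fell in KO, and 1 rose and 1 fell in KI, with sums of 6.93 to 10.5 CPM over all libraries. Among all genes tested, 13.5% fell and 16.4% rose by any amount in KO, and 15.4% fell and 16.1% rose in KI. A single call in a list of 5 or 6 genes is near these shares and is not read as a result. The part of these cell types in the levels of the 10 genes was not tested. No list had a gene at or under 3 counts in every library of a genotype.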

How the data were processed

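RNA of isolated RS was made into libraries without polyA selection. As the study's methods and the submitters' processing notes give it, the authors ran cutadapt 3.4 on the reads, mapped these with STAR 2.7.8a to GRCm38, and let featureCounts (Subread 2.0.1) count fragments per GENCODE M18 gene, by strand and with marked duplicates kept. The deposited values are these raw counts, used without change, with 0 columns left without a library. The floor of 3 counts covers counting error only. Groups and replicate numbers came from the labels. GENCODE M21 (also GRCm38) supplied symbols, positions and exon lengths, and named 54165 of 54232 genes.

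Counts were filtered with filterByExpr, scaled with TMM and fitted with a quasi-likelihood model of genotype over 18 libraries (R 4.3.3, edgeR 4.0.16, limma 3.58.1), with glmTreat against 1 log2 unit and glmQLFTest for any change. The adjusted p threshold of 0.1 follows the study. log2 CPM used a prior count of 2. Exact permutation tests used scipy 1.17.1. Alternatives were DESeq2 1.42.0, its size factors, scaling without mitochondrially encoded genes, no filter, at least 10 counts in every library, only the genotypes compared, a replicate block, an adjusted p of 0.05, the interval null of glmTreat, summed close pairs without KI 4, and leaving out each library. The interval null and the alternatives to the ratios were chosen after seeing the data. The genes described, the lists of other genes and the rule for named genes (each of the 10, in each list the largest and smallest change in KO, the 3 patterns most like Odf1, Odf2 and Smcp, and Ddx25) were chosen with earlier results of these data known. Akap4 was named after its value was seen. Levels of miRNAs were not analysed here.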

Additional observations from a re-analysis of the deposited data

Results flagged for a closer look

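In the 30 groups formed by the 10 genes and 3 genotypes, 1 held a library that stood apart by Dixon's test, where chance gives about 1.5. This was Odf2 in KO 1, at 3615 CPM beside 755 to 1804 CPM in the other KO libraries, a gap of 0.633 of the whole range. The call of Odf2 in KO did not rest on it.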

How the results depend on the processing

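The counts of the 10 genes past each threshold kept their values under 27 of the 28 alternatives. The exception was the sum of close pairs without KI 4 (3 libraries of WT, 5 of KO and 3 of KI), with 4 and 8 genes lower in KO and 3 and 7 lower in KI past 1 log2 unit and by any amount. Fewer libraries enter that fit. No log2 fold change against WT reversed. Those of KI against KO reversed for Odf1 (0.00237) and Smcp (0.00725) under the same sum, and neither was called.

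Counts over all genes moved more. With close pairs summed and without KI 4, 1827 genes were lower and 1905 higher in KO by any amount and 82 higher past 1 log2 unit, and in KI 1647 were lower and 1275 higher by any amount, and 165 lower and 62 higher past 1 log2 unit. With at least 10 counts in every library, where fewer genes are tested, 33 were higher in KO and 32 in KI past 1 log2 unit. The interval null gave 205 and 171. Of KI against KO, edgeR called 21 genes, DESeq2 79, no filter 97, the stricter filter 5, only the genotypes compared 11 and summed close pairs 44, and leaving out a library gave 8 to 111, the highest without KI 4. The cause was not tested.

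Replicate numbers did not pair the libraries, with correlations of same-numbered deviations between -0.44 and 0.48. The replicate block left the counts of the 10 genes at 5 and 9 in KO and 5 and 9 in KI. Of 228 values of the ratios 8 no longer passed, all with close pairs averaged, 3 newly passed, each without a single library, and none reversed. For Efcab1, with 74 to 170 counts in mutant libraries, counting error is largest.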
